A study of Mus musculus with 6 samples.

Results

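The 10 core circadian clock genes *Arntl*, *Clock*, *Per1*, *Per2*, *Per3*, *Cry1*, *Cry2*, *Nr1d1*, *Nr1d2* and *Dbp*, chosen by their symbols, are part of the 49315 genes counted in liver F4/80-positive cells. This fraction, in which Kupffer cells (macrophages that reside in liver) are enriched, was taken from 3 WT and 3 Lpcat3 KOMac mice, and each mouse gave 1 library. Values of a genotype are given in the order of mouse number. Both genotypes were littermates on a C57BL/6N background with a floxed *Lpcat3* gene on both alleles, and had been fed a high-fat diet with 60% fat for 16 weeks from young adulthood. Lpcat3 KOMac mice also carried 1 allele of LysM-Cre, a Cre recombinase expressed from the *Lyz2* locus in myeloid cells, which WT mice lacked. The model is a partial deletion limited to cells that express *Lyz2*, and hepatocytes keep the gene. The time of day at which livers were digested and the sex of each mouse are not given in the sources used here.

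The circadian clock is a loop of transcription that runs in nearly every cell. ARNTL (BMAL1) and CLOCK bind together to E-box sequences and activate the *Per* and *Cry* genes, whose proteins then inhibit that pair, and the same pair activates *Nr1d1*, *Nr1d2* and *Dbp*. The nuclear receptors NR1D1 and NR1D2 (REV-ERB alpha and beta) repress *Arntl* through ROR elements, and DBP activates genes through D-boxes, so that in liver and in macrophages *Dbp* and *Nr1d1* transcripts peak at the opposite time of day to *Arntl*. *Per1* is in addition switched on quickly by glucocorticoids and by signals that act through cAMP response elements.

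The promoters of 4 of these genes are shown, picked because they hold letters of the motifs searched for, so they do not stand for all clock genes. RefSeq start-site windows (250 bases before to 50 after each start, build GRCm38.p6, the build of the counts) were found for 9 of the 10 genes, 13 windows in all. Capitals mark the letters of the E-box (CACGTG), its variant E-prime box (CACGTT), the D-box (TTATGNAA or TTACGTAA), the core of the cAMP response element (TGACGT) and the core of the ROR element (TAGGTCA or TGGGTCA), searched on both strands, with no overlap between different motifs in these windows. The *Per1* windows lie on the plus strand at chr11:69098699-69098998 and chr11:69099902-69100201, the *Per3* window on the minus strand at chr4:151044616-151044915, the *Cry1* window on the minus strand at chr10:85185005-85185304 and the *Arntl* window on the plus strand at chr7:113207261-113207560.
Per1 window 1: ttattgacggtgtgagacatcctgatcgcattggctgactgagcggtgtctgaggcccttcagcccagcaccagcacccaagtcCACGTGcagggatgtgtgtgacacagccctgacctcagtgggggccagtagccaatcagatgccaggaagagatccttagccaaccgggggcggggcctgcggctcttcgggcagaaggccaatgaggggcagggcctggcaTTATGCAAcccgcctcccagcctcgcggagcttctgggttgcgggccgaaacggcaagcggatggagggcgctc
Per1 window 2: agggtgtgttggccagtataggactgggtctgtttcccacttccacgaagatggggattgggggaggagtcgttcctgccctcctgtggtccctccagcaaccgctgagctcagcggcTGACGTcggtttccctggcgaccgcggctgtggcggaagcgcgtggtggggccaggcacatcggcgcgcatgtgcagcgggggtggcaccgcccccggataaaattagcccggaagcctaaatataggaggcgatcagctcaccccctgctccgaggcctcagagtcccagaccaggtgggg
Per3: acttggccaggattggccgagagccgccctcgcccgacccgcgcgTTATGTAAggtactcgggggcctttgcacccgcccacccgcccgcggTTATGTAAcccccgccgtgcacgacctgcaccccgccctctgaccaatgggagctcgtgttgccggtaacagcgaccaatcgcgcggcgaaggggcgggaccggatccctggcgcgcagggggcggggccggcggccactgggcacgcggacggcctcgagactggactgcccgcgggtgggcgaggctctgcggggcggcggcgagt
Cry1: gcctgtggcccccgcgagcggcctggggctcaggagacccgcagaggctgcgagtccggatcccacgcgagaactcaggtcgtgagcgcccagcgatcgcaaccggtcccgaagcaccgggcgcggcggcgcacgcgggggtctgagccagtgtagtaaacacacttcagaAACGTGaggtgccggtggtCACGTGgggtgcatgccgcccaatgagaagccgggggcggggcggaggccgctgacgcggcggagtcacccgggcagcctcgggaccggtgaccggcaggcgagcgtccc
Arntl: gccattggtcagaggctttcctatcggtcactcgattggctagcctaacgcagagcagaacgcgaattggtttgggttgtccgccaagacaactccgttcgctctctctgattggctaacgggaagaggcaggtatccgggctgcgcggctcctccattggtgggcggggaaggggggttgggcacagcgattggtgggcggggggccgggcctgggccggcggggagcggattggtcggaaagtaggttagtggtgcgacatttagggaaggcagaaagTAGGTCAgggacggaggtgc
An E-box lies 166 bases before the first *Per1* start, with a D-box 24 bases before it, and the second *Per1* window holds a cAMP response element core 132 bases before its start. The *Per3* window holds 2 D-boxes, 205 and 158 bases before the start. In *Cry1* the E-box is 60 bases and the E-prime box 79 bases before the start, and the ROR element core of *Arntl* is at base 31 after it. Of 32851 mouse windows of the same length, 7.15% hold the E-box, 4.68% the E-prime box, 3.5% a D-box, 7.51% the cAMP response element core and 6.45% the ROR element core. E-prime boxes were also found in the *Cry2* and *Nr1d1* windows, and no searched letters in those of *Clock*, *Nr1d2* and *Dbp*. The E-box itself was found only in *Per1* and *Cry1* windows, not in those of the targets *Nr1d1*, *Nr1d2* and *Dbp*. These matches describe letters, not bound sites.

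Total counts were between 44954224 and 71392812 per library. *Lpcat3*, the deleted gene, was at 85.0, 66.2 and 61.2 CPM (counts scaled to library size by the TMM method) in the WT mice and at 19.5, 33.3 and 19.4 CPM in the Lpcat3 KOMac mice, and *Lyz2* was also lower in every Lpcat3 KOMac mouse. All 8 Kupffer cell markers examined were detected, with *Cd5l* between 8317 and 11785 CPM. Others were less even. *Marco* was at 1076, 3168 and 999 CPM in the WT mice and 1353, 148 and 2855 CPM in the Lpcat3 KOMac mice. *Timd4* was at 428, 938 and 344 CPM in WT and at 478, 123 and 645 CPM in Lpcat3 KOMac mice. Both were lowest in Lpcat3 KOMac mouse 2, and their part in the clock gene values was not tested. Hepatocyte RNA differed widely between libraries. The summed level of 5 hepatocyte transcripts was 18861, 1769 and 1761 CPM in the WT mice and 4571, 12439 and 4438 CPM in the Lpcat3 KOMac mice, highest in WT mouse 1 and Lpcat3 KOMac mouse 2. Hepatocytes also express clock genes, and how several clock genes moved with these levels over the 6 libraries is given in a later paragraph. In bulk RNA, fewer cells of a type and less RNA per cell cannot be told apart.

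All 10 clock genes were expressed and passed the filter on low counts, with counts from 115 (*Cry1* in WT mouse 2) to 5031 (*Nr1d2* in WT mouse 1). Per kilobase of exonic length, the scale on which genes can be compared, *Nr1d2* stood highest at 12.4 ± 4.25 FPKM (SD, n = 6), followed by *Nr1d1* at 10 ± 4.66 FPKM and *Per1* at 6.34 ± 3.06 FPKM. *Dbp* at 4.63 ± 3.62 FPKM and *Clock* at 4.42 ± 0.388 FPKM came next, then *Arntl* at 2.54 ± 0.438 FPKM. Lowest were *Cry1* (1.6 ± 0.685 FPKM), *Per2* (1.18 ± 0.698 FPKM), *Cry2* (1.1 ± 0.606 FPKM) and *Per3* (0.631 ± 0.274 FPKM). The place of *Per1* differed by genotype, since its mean was 8.96 FPKM in WT and 3.72 FPKM in Lpcat3 KOMac cells, the latter below *Dbp* (4.90 FPKM) and *Clock* (4.49 FPKM). Each pair of neighbours in the order over 6 mice was closer than the larger of their 2 SDs, except *Clock* and *Arntl* and then *Arntl* and *Cry1*.

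**Figure D1:**
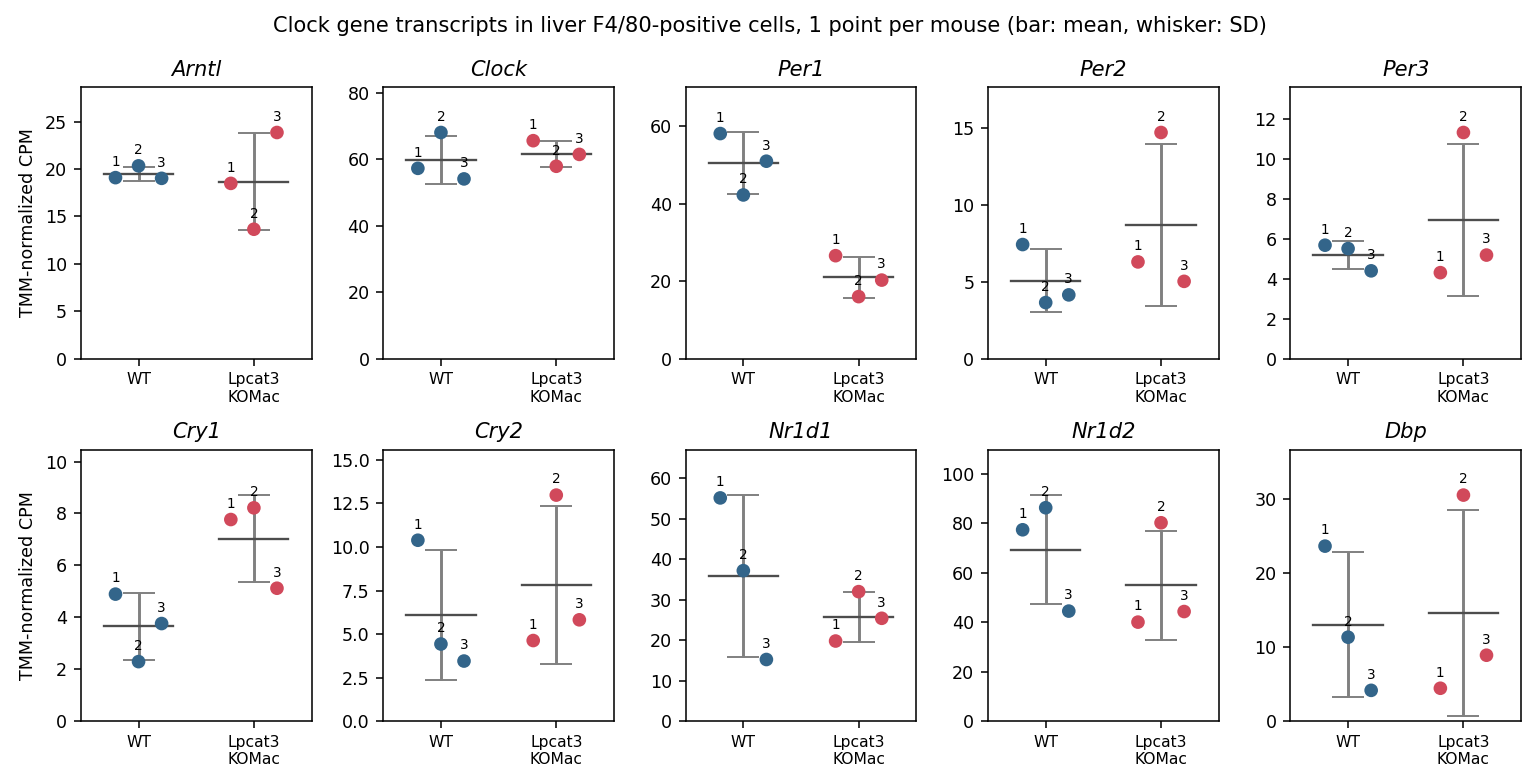
TMM-normalized CPM (vertical axis, from 0) of each clock gene in 3 WT and 3 Lpcat3 KOMac mice, with 1 point per mouse labelled by its number, the group mean as a bar and the SD as a whisker. *Per1* was between 42.2 and 58.1 CPM in WT and between 16.0 and 26.6 CPM in Lpcat3 KOMac mice, *Cry1* was the other gene whose groups did not overlap, and *Dbp* had the widest fold range within each genotype (5.67-fold and 6.85-fold).

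The comparison of genotypes asked whether loss of *Lpcat3* in myeloid cells goes with a different state of the clock in these cells. The *Period* gene *Per1* was lower and the cryptochrome *Cry1* higher in every Lpcat3 KOMac mouse, while the positive limb, *Arntl* and *Clock*, had means within 5% of each other in both genotypes. No clock gene had an adjusted p-value under 0.05 in the quasi-likelihood test of edgeR (Benjamini-Hochberg adjustment), as was the case for all 16134 genes tested (0% called). At an unadjusted p-value under 0.05, 1 of the 10 was lower and 1 of the 10 higher, against 1.57% and 1.07% of all genes tested. Groups did not overlap for 1 gene in each direction, against 5.2% (lower) and 2.29% (higher) of all genes, so 2 of 10 in either direction against 7.49%. The log2 fold changes of the 10 genes had a median of 0.10, against -0.04 over all genes tested, and 4 of the 10 were below 0, against 59.9% of all genes.

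On GRCm38, *Per1* (ENSMUSG00000020893) lies at 69095217 to 69109960 of chromosome 11, on the plus strand. Encoding an inhibitor of the ARNTL and CLOCK pair, it was at 58.1, 42.2 and 51.0 CPM in the WT mice and at 26.6, 16.0 and 20.3 CPM in the Lpcat3 KOMac mice. The groups did not overlap, and the highest Lpcat3 KOMac mouse was well below the lowest WT mouse. The mean was 50.4 ± 7.93 CPM in WT (SD, n = 3) and 21 ± 5.31 CPM (SD, n = 3) in Lpcat3 KOMac cells, 41.5% of the WT level. On the log2 scale Lpcat3 KOMac cells differed from WT by -1.27 with a standard error of 0.22, at an unadjusted p = 0.00135 and an adjusted p = 1 in edgeR. DESeq2's Wald test, which called 12 genes (0.0868% of those with an adjusted p-value), called *Per1* (adjusted p = 0.0082 with Benjamini-Hochberg adjustment) and no other clock gene. Without WT mouse 1 and Lpcat3 KOMac mouse 2, the libraries highest in hepatocyte transcripts (added once the data had been seen), the log2 fold change of *Per1* was -0.99 (adjusted p = 0.128 in edgeR).

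*Per2* and *Per3*, which encode the other PERIOD proteins, did not follow *Per1*. *Per2* (ENSMUSG00000055866, chromosome 1, 91415982 to 91459324, minus strand) was at 7.43, 3.65 and 4.16 CPM in the WT mice and at 6.30, 14.7 and 5.04 CPM in the Lpcat3 KOMac mice. The groups overlapped, and Lpcat3 KOMac mouse 2, a hepatocyte-rich library, stood above all others. The log2 fold change of *Per2* was 0.77 (standard error 0.50), and 0.17 without Lpcat3 KOMac mouse 2. *Per3* (ENSMUSG00000028957, chromosome 4, 151003652 to 151044665, minus strand) was at 5.68, 5.51 and 4.40 CPM in WT and at 4.31, 11.3 and 5.18 CPM in the Lpcat3 KOMac mice. Here too Lpcat3 KOMac mouse 2 was the highest, while the other 5 mice lay between 4.31 and 5.68 CPM. The log2 fold change of *Per3* was 0.42 (standard error 0.40) with all mice and -0.12 without Lpcat3 KOMac mouse 2. The mouse with the most *Per2* and *Per3* had the least *Per1*.

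*Cry1* (ENSMUSG00000020038, chromosome 10, 85131700 to 85185064, minus strand), which encodes the stronger of the cryptochrome repressors, was at 4.89, 2.30 and 3.76 CPM in the WT mice and at 7.77, 8.22 and 5.12 CPM in the Lpcat3 KOMac mice. The groups did not overlap, but WT mouse 1 at 4.89 CPM and Lpcat3 KOMac mouse 3 at 5.12 CPM nearly met. The mean was 3.65 ± 1.30 CPM in WT (SD, n = 3) and 7.03 ± 1.67 CPM (SD, n = 3) in Lpcat3 KOMac cells. The difference was 0.95 on the log2 scale with a standard error of 0.34, at an unadjusted p = 0.034 and an adjusted p = 1 in edgeR. For both *Per1* and *Cry1* the two-sided exact permutation test of log2 CPM gave p = 0.1, the smallest that 3 mice against 3 allow. For *Cry1* the log2 fold change stayed between 0.70 and 1.22 with 1 mouse omitted, while the unadjusted p-value in edgeR, then from fewer mice, was 0.066 without WT mouse 2, 0.0742 without WT mouse 3, 0.0903 without Lpcat3 KOMac mouse 1 and 0.099 without Lpcat3 KOMac mouse 2. That of *Per1* was at most 0.00762 with any 1 mouse left out. *Cry2* (ENSMUSG00000068742, chromosome 2, 92403646 to 92434043, minus strand), the other cryptochrome, was at 10.4, 4.43 and 3.46 CPM in WT and at 4.63, 13 and 5.82 CPM in the Lpcat3 KOMac mice. It overlapped between genotypes and was highest in the 2 libraries with the most hepatocyte RNA. Its log2 fold change was 0.36 (standard error 0.58), and -0.22 without Lpcat3 KOMac mouse 2.

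Markers of Kupffer cells and of other cell types are given beside these genes. None had an adjusted p-value under 0.05 in edgeR. All 8 Kupffer cell markers had log2 fold changes below 0, from -0.46 to -0.18 (59.9% of all genes tested were below 0). Their summed level was 32007 to 44274 CPM in WT and 25355 to 34573 CPM in Lpcat3 KOMac cells, which overlap. For 2 of the 8, every Lpcat3 KOMac mouse was below every WT mouse, against 5.2% of all genes. These were *Clec4f* (9170, 12172 and 8772 against 7361, 6449 and 8331 CPM) and *C1qa* (3085, 3861 and 3371 against 2760, 2609 and 2969 CPM). Of 4 neutrophil markers 3 were tested and all 3 had log2 fold changes above 0, with a summed level of 1.96 to 2.95 CPM in WT and 3.97 to 5.35 CPM in Lpcat3 KOMac cells, and *Ly6g* had at most 3 counts in any library. The 5 sinusoidal endothelial markers had log2 fold changes from 0.02 to 0.86, with summed levels of 643 to 739 CPM and 713 to 961 CPM. Hepatocyte markers overlapped, at 1761 to 18861 CPM in WT and 4438 to 12439 CPM in Lpcat3 KOMac cells. The 3 monocyte markers had log2 fold changes from 0.36 to 1.70 and the 4 stellate cell markers from 0.26 to 0.40. The monocyte marker *Chil3* did not overlap, at 1.12, 1.04 and 2.12 CPM in WT and 8.77, 2.43 and 2.70 CPM in Lpcat3 KOMac cells. Of all genes tested, 2.29% did not overlap in that direction. Summed levels of stellate cell markers (49.8 to 129 and 93.6 to 172 CPM), monocyte markers (19.1 to 95.5 and 54.9 to 81.8 CPM), B cell markers (2.57 to 6.23 and 3.95 to 4.99 CPM) and T and NK cell markers (0.579 to 0.918 and 0.382 to 0.984 CPM) overlapped as well. Their part in the values of *Per1* and *Cry1* was not tested, apart from the fits without hepatocyte-rich libraries or with hepatocyte level as a covariate, where the log2 fold changes with the covariate were -1.28 for *Per1* and 0.83 for *Cry1*.

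In the positive limb, *Arntl* (ENSMUSG00000055116, chromosome 7, 113207465 to 113314126, plus strand) stood at 19.1, 20.3 and 19.0 CPM in the WT mice and at 18.5, 13.7 and 23.9 CPM in the Lpcat3 KOMac mice. The WT mice lay close together, and the Lpcat3 KOMac mice lay on both sides of them. *Clock* (ENSMUSG00000029238, chromosome 5, 76209868 to 76304792, minus strand), which encodes the partner of ARNTL, had the smallest range of the 10 genes, at 57.2, 68.0 and 54.1 CPM in WT and 65.6, 57.9 and 61.4 CPM in the Lpcat3 KOMac mice. The log2 fold changes were -0.06 (standard error 0.21) for *Arntl*, which became 0.03 with total counts as the only scaling, and 0.04 (standard error 0.11) for *Clock*.

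The REV-ERB genes and *Dbp*, the direct targets of the ARNTL and CLOCK pair, differed more between mice of a genotype than between genotypes. *Nr1d1* (ENSMUSG00000020889, chromosome 11, 98767932 to 98775333, minus strand) was at 55.1, 37.2 and 15.2 CPM in the WT mice and at 19.8, 32 and 25.4 CPM in the Lpcat3 KOMac mice. All Lpcat3 KOMac values fell inside the WT range. *Nr1d2* (ENSMUSG00000021775, chromosome 14, 18204054 to 18239127, minus strand) was at 77.4, 86.3 and 44.5 CPM in WT and at 40.1, 80.3 and 44.4 CPM in the Lpcat3 KOMac mice. Mice fell into a higher set of 3 (WT mice 1 and 2 and Lpcat3 KOMac mouse 2) and a lower set of 3, each with both genotypes. *Dbp* (ENSMUSG00000059824, chromosome 7, 45705088 to 45710203, plus strand), a PAR bZIP activator and a sensitive readout of the clock in liver, was at 23.7, 11.4 and 4.18 CPM in WT and at 4.46, 30.6 and 8.92 CPM in the Lpcat3 KOMac mice. Its extremes lay in both genotypes, the lowest in WT mouse 3 and the highest in Lpcat3 KOMac mouse 2, a hepatocyte-rich library. The log2 fold changes were -0.48 (standard error 0.47) for *Nr1d1*, -0.34 (standard error 0.36) for *Nr1d2* and 0.16 (standard error 0.91) for *Dbp*. With 1 mouse omitted, that of *Nr1d1* went from -0.84 (without WT mouse 3) to -0.03 (without WT mouse 1), and that of *Nr1d2* from -0.70 (without Lpcat3 KOMac mouse 2) to -0.12 (without Lpcat3 KOMac mouse 1). That of *Dbp* went from -0.96 without Lpcat3 KOMac mouse 2 to 0.91 without WT mouse 1. *Nr1d1* shares 263 exonic bases with *Thra* on the other strand (941 to 1238 counts per library) and *Dbp* 539 with *Sphk2* (2176 to 3552 counts), so that reads in those stretches are uncertain. *Cry2* and *Arntl* overlap antisense genes with at most 9 counts.

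**Figure D2:**
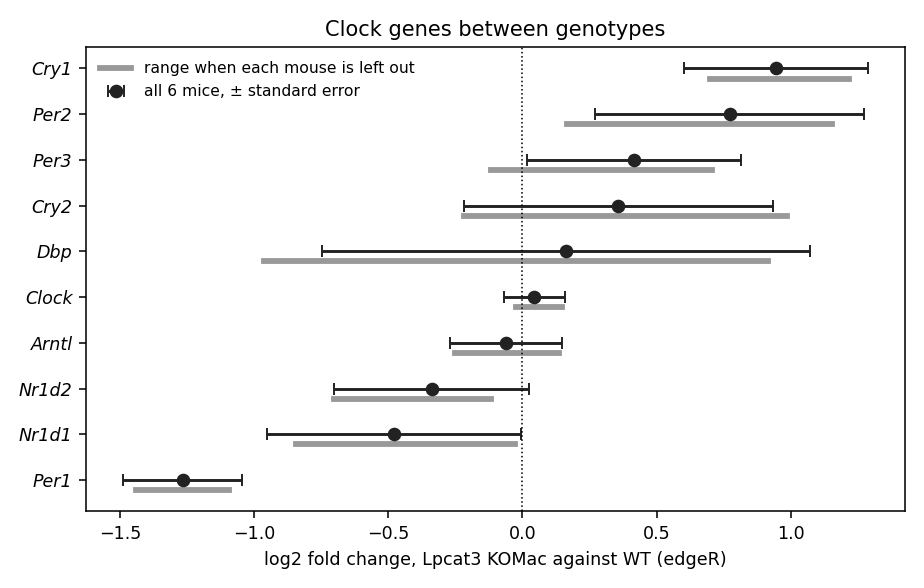
Log2 fold change of each clock gene, Lpcat3 KOMac against WT, from edgeR (point, with its standard error) and the range over the 6 fits that each lacked 1 mouse (grey bar). With single mice left out, *Per1* stayed between -1.44 and -1.09 and *Cry1* between 0.70 and 1.22, whereas *Dbp* ranged from -0.96 to 0.91.

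The spread between mice was large for the clock genes as a group. Between the lowest and the highest of the 6 mice, *Dbp* differed 7.32-fold, *Per2* 4.03-fold, *Cry2* 3.76-fold, *Per1* 3.63-fold, *Nr1d1* 3.62-fold and *Cry1* 3.58-fold. *Per3* followed with 2.63-fold, *Nr1d2* with 2.15-fold, *Arntl* with 1.75-fold and *Clock* with 1.26-fold. On the log2 CPM values, the median range of the 10 genes was 3.57-fold, against 1.61-fold over all genes tested. Within WT the medians were 1.98-fold for the clock genes and 1.45-fold for all genes, and within Lpcat3 KOMac cells 1.87-fold and 1.30-fold. *Dbp* ranged over 5.67-fold within WT and 6.85-fold within Lpcat3 KOMac mice, and *Per1* over 1.38-fold and 1.66-fold. For *Per1*, therefore, the range within each genotype was small beside the difference between them, and for *Dbp* the reverse held.

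**Figure D3:**
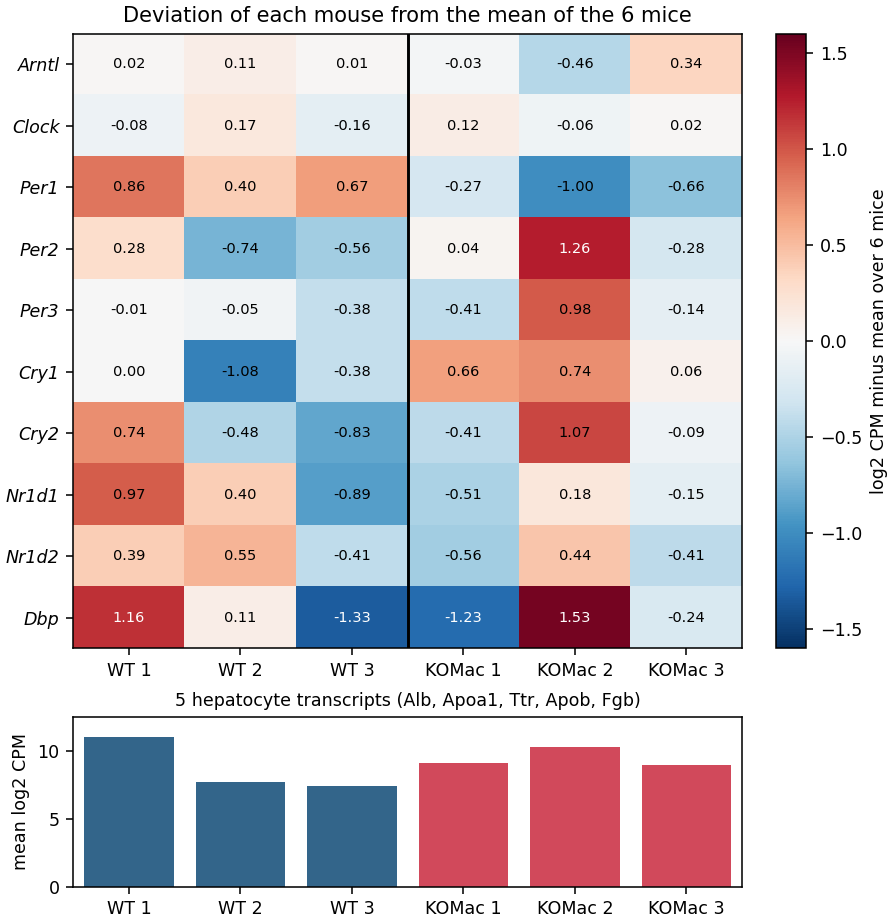
Deviation of log2 CPM of each clock gene in each mouse from the mean of the 6 mice (colour and printed value, red above and blue below the mean), over the mean log2 CPM of 5 hepatocyte transcripts in the same mice (bars). *Dbp* deviated by -1.33 in WT mouse 3 and 1.53 in Lpcat3 KOMac mouse 2, *Per1* was above 0 in every WT mouse and below 0 in every Lpcat3 KOMac mouse, and the hepatocyte level was highest in WT mouse 1 at 11.1.

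To set the opposite phases of the loop against each other in each animal, the mean log2 CPM of *Nr1d1* and *Dbp* was taken from that of *Arntl* and *Clock*. This phase contrast came to -0.13, 0.85 and 2.00 for the WT mice and to 1.88, -0.15 and 1.34 for the Lpcat3 KOMac mice. Each genotype held a mouse near 0 and a mouse near the top, with a span of 2.13 log2 units in WT and 2.04 in Lpcat3 KOMac mice. Most of this spread came from *Nr1d1* and *Dbp*, at 3.62-fold and 7.32-fold between the lowest and highest mouse. *Arntl* and *Clock* ranged over 1.75-fold and 1.26-fold, so the contrast alone does not show that both arms moved. Within Lpcat3 KOMac mice *Arntl* (1.75-fold) ranged slightly more than *Nr1d1* (1.62-fold), but *Dbp* ranged over 6.85-fold and *Clock* over 1.13-fold. The mice near 0 were WT mouse 1 and Lpcat3 KOMac mouse 2, whose libraries held the most hepatocyte transcripts (18861 and 12439 CPM, against 1761 to 4571 CPM in the other 4), and the part of these in the contrast was not tested. The means were 0.91 ± 1.07 (SD, n = 3) and 1.02 ± 1.06 (SD, n = 3), so that animals of a genotype differed far more than the genotypes. *Npas2* encodes a partner of ARNTL like CLOCK, and *Nfil3* a D-box repressor. With both in place of *Clock*, the contrast was lowest in WT mouse 2 (-3.94) and Lpcat3 KOMac mouse 2 (-3.85). It was highest in Lpcat3 KOMac mouse 1 (-1.23) and WT mouse 3 (-1.34). The order of mice changed, since WT mouse 2 had not been among the lowest before. *Npas2* had only 2 counts in WT mouse 2 and 6 in Lpcat3 KOMac mouse 2, so these lowest values are uncertain.

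**Figure D4:**
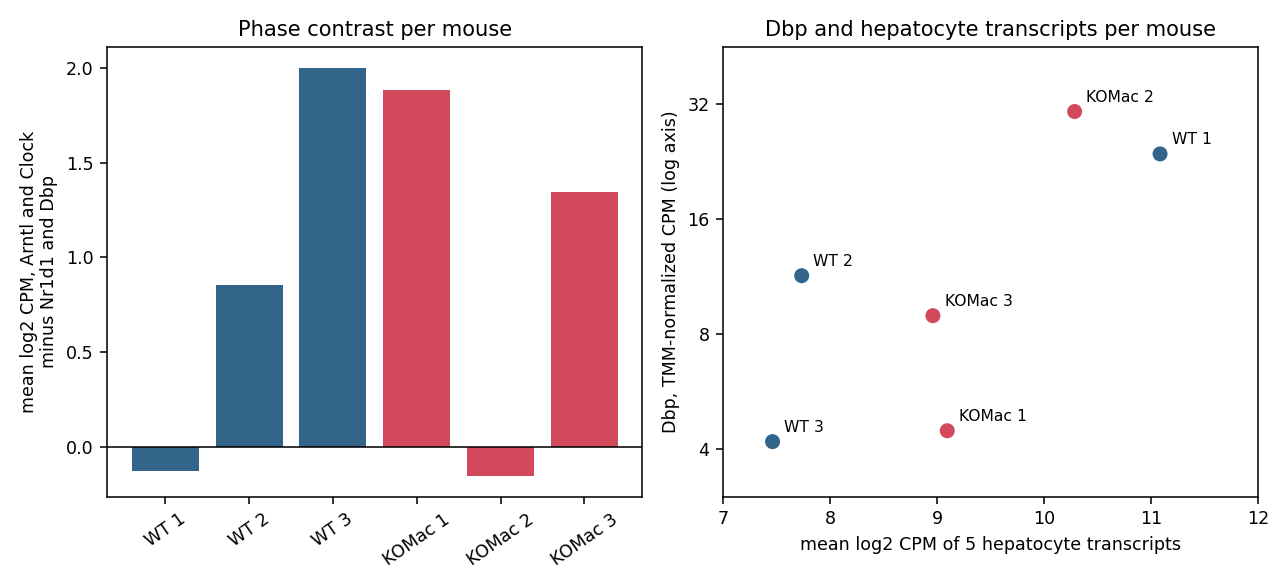
Left, the phase contrast of each mouse in log2 units (bars from 0). Right, *Dbp* in CPM on a log axis against the mean log2 CPM of 5 hepatocyte transcripts, with 1 point per mouse. The contrast spanned 2.13 log2 units in WT and 2.04 in Lpcat3 KOMac mice, and WT mice 2 and 3, low in hepatocyte transcripts, stood at 11.4 and 4.18 CPM of *Dbp*.

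The levels of the clock genes were compared with that of hepatocyte RNA over the 6 libraries, and 0 relations passed after adjustment. Of 10 relations between a clock gene and the mean log2 CPM of 5 hepatocyte transcripts, examined after the values were seen, the closest was that of *Cry2*. Its Pearson r was 0.91 (exact permutation p = 0.0236, adjusted p = 0.236 over 10 relations) and its Spearman rho 0.89 (exact permutation p = 0.0333, adjusted p = 0.167). Within genotypes r was 0.90, and without WT mice 1 and 3, the farthest from the median, 0.86. *Per2* had r = 0.79 and rho = 0.89 (exact permutation p = 0.0583 and 0.0333, adjusted p = 0.292 and 0.167), r = 0.79 within genotypes and 0.96 without the same mice. For *Dbp* r was 0.74 and rho 0.71 (exact permutation p = 0.108 and 0.136, adjusted p = 0.361 and 0.454), with 0.76 within genotypes and 0.48 without WT mice 1 and 3. *Per1* had r = -0.19 and rho = -0.09 (exact permutation p = 0.681 and 0.919) over the 6 libraries, 0.16 within genotypes and -0.94 without WT mice 1 and 3, so that its value rests on those mice. *Cry1* had r = 0.62 and rho = 0.60 (exact permutation p = 0.183 and 0.242), 0.69 within genotypes and 0.90 without them. *Arntl* was also set against the other 9 genes. The closest relation was with *Per2*, at r = -0.81 and rho = -0.60 (exact permutation p = 0.075 and 0.242, adjusted p = 0.578 and 0.988 over 9 relations). Within genotypes r was -0.84, and it was -0.67 without Lpcat3 KOMac mice 2 and 3. Against *Dbp* and *Nr1d1*, whose rhythms oppose that of *Arntl*, r was -0.48 and -0.08 (exact permutation p = 0.353 and 0.889), and both turned positive, 0.42 and 0.44, without Lpcat3 KOMac mice 2 and 3.

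Other genes of the clock pathway did not separate the genotypes. Of 26 regulators and co-factors 25 were tested, 14 with log2 fold changes below and 11 above 0, and 0 had an unadjusted p-value under 0.05 (2.64% of all genes tested did). Their median log2 fold change was -0.02. Among the smallest p-values were those of *Bhlhe41*, a repressor at E-boxes (log2 fold change 0.42, standard error 0.42), and *Nono*, a partner of PERIOD proteins (-0.09, standard error 0.09). The kinases that phosphorylate PERIOD proteins, *Csnk1d* and *Csnk1e*, were at -0.07 (standard error 0.09) and 0.00 (standard error 0.13) on that scale. The 10 output genes also had 0 at an unadjusted p-value under 0.05, with a median of 0.06, and *Wee1*, a cell cycle kinase, was at 0.37 (standard error 0.50). DESeq2 called 0 genes of either list.

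Among the outputs, *Tef* and *Hlf* are PAR bZIP relatives of *Dbp*. *Tef* was at 58.8, 40.7 and 24.3 CPM in the WT mice and at 27.4, 78.7 and 35.1 CPM in the Lpcat3 KOMac mice, the same order of mice as for *Dbp*. *Hlf* was at 20.7, 3.27 and 1.09 CPM in WT and at 7.37, 21 and 5.21 CPM in the Lpcat3 KOMac mice. Like *Cry2* it was highest in the hepatocyte-rich libraries, but the other mice did not follow the order of *Dbp*, and it ranked 959 of 16133 in likeness to *Dbp* (r = 0.79). Among all genes tested, the patterns most like that of *Dbp* over the 6 libraries, by Pearson r of log2 CPM, included those of *Lancl2*, *Tef*, *Dym* and *Agbl3*, with r from 0.97 to 0.99, and *Tef* ranked 3 of 16133. For *Nr1d1* they were *Zcchc24*, *Nedd4l*, *Pdxdc1*, *Itfg2* and *Pigx* (0.98 to 0.99), with *Dbp* at 0.84 and *Nr1d2* at 0.82. For *Arntl* they were *Cdkn2a*, *Cdkn2b*, *Clstn2*, *Spg20* and *G730013B05Rik* (0.98 to 0.99). The patterns most like that of *Per1* were those of *Tent5a*, *Wdr3*, *Selenow*, *Cebpg* and *Stx3* (0.98 to 0.99), none of them on the clock lists. With 6 points, 30 to 48 genes reached 0.95 for each of these 4 clock genes.

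*Per1* is also a gene of the glucocorticoid and immediate early responses. Of 11 glucocorticoid-responsive genes, 8 had log2 fold changes below 0, with a median of -0.32 (59.9% and -0.04 over all genes tested). This direction rested on WT mouse 1, the library richest in hepatocyte RNA, where the 11 genes summed to 1860 CPM against 821 to 1114 CPM in the other 5 libraries. Without it 4 were below 0 and the median was 0.28 (chosen after seeing the data). *Errfi1*, an inhibitor of EGF receptor signalling, was at 473, 42.1 and 33.6 CPM in the WT mice and at 88.8, 124 and 46.5 CPM in the Lpcat3 KOMac mice, and its log2 fold change went from -1.08 to 1.19 when WT mouse 1 was omitted. An unadjusted p-value under 0.05, found for 2.64% of all genes tested, was found for 1 of the 11. It was *Tsc22d3*, which encodes the mediator GILZ, at 258, 129 and 149 CPM in the WT mice and 112, 88.9 and 89.1 CPM in the Lpcat3 KOMac mice. Its groups did not overlap, as for 5.2% of all genes in that direction, and the log2 difference was -0.89 with a standard error of 0.28 (adjusted p = 1 in edgeR). Without WT mouse 1 it was -0.52. *Dusp1*, a phosphatase of MAP kinases, followed with -0.60 (standard error 0.25), whereas the metallothionein *Mt2* had 0.81 (standard error 0.50). *Fkbp5* and *Sgk1* had -0.32 (standard error 0.64) and -0.07 (standard error 0.08), and *Fkbp5* had 0.55 without WT mouse 1. Of 10 immediate early genes, 6 were below and 4 above 0, with a median of -0.13 that ranged from -0.36 without WT mouse 1 to 0.18 without WT mouse 2. An unadjusted p-value under 0.05 was found for 2 of the 10, *Btg2* and *Atf3*. *Btg2*, an antiproliferative gene, was at 81.2, 106 and 95.1 CPM in WT and 72.5, 52.8 and 61.9 CPM in the Lpcat3 KOMac mice, again without overlap, and the log2 difference was -0.59 with a standard error of 0.16 (adjusted p = 1 in edgeR). *Atf3* was at 0.58 (standard error 0.23) and *Ier2* at -0.30 (standard error 0.19) on the same scale, while *Fos*, *Jun* and *Egr1* lay between -0.09 and 0.11. Whether any of these inputs bears on *Per1* was not tested.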

How the data were processed

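RNA of liver F4/80-positive cells was sequenced as 1 poly-A library per mouse (NEBNext Ultra kit). The authors deposited raw read counts for 49315 Ensembl genes per mouse, without normalization, and the submitters' processing notes name Trimmomatic 0.36, STAR 2.5.2b, featureCounts of Subread 1.5.2 and GRCm38. The strand setting and the treatment of reads that match several genes are not given in the sources used here. Symbols were taken from GENCODE M21 (49056 identifiers found). Genotype and mouse number came from the sample titles.

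Genotypes were compared on the counts in edgeR 4.0.16 under R 4.3.3 (TMM normalization, default expression filter with a minimum count of 10, robust quasi-likelihood test, genotype as the only term), with Benjamini-Hochberg adjustment over the 16134 genes tested and a threshold of 0.05. DESeq2 1.42.0, limma-voom (limma 3.58.1) and the other alternatives are given in the closing section. Levels are TMM-normalized CPM, and log2 CPM used a prior count of 2. Each standard error was derived from the F statistic of the test, as the size of the log2 fold change over its square root. The fits were tested on simulated data. Members and gene lists were chosen with earlier results of these data known. Named genes are the 10 clock genes, *Lpcat3* and *Lyz2*, the 3 genes of each list with the smallest p-value, genes that overlap a clock gene, and the 5 genes whose pattern was most like that of each of 4 clock genes. Some genes that these rules name are not reported here. Other genes were chosen after their values were seen. Total counts were between 44954224 and 71392812, and the lowest count of a clock gene was 115.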

Additional observations from a re-analysis of the deposited data

How the results depend on the processing

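Of 170 log2 fold changes of clock genes under 17 alternatives, 157 kept their direction and side of the threshold, 12 changed sign and 1 (*Per1* in DESeq2, -1.26) passed the threshold. DESeq2 called 12 genes in all and 1 clock gene, and all edgeR and limma-voom settings called 0. At an unadjusted p-value under 0.05, the fit on all mice found 426 genes, the replicate block 138, the hepatocyte covariate 1585, the fit without both hepatocyte-rich libraries 1767, and the fits without 1 mouse from 179 (Lpcat3 KOMac mouse 1) to 2028 (WT mouse 1), with 227 without WT mouse 2 and 245 without Lpcat3 KOMac mouse 2. The labels do not say that replicate numbers pair the animals. Deviations of same-numbered mice had a mean correlation over genes of -0.18, from -0.60 to 0.36. WT mouse 1 and Lpcat3 KOMac mouse 2, the hepatocyte-rich libraries, had 0.67. WT mouse 2 and Lpcat3 KOMac mouse 3, which had the most *Marco* (3168 and 2855 CPM), had 0.57. Since hepatocyte RNA and *Marco* differed between these mice too, the correlations cannot show whether mice shared a day of digestion. Under the replicate block the values were -1.29 for *Per1* (unadjusted p = 0.000433 in edgeR) and 0.98 for *Cry1* (unadjusted p = 0.0633), and 0 genes were called. *Per3* ranged from -0.12 to 0.71, *Cry2* from -0.22 to 0.99, *Arntl* from -0.25 to 0.14, *Clock* from -0.024 (without WT mouse 3) to 0.15 and *Dbp* from -0.96 to 0.91 when single mice were left out. *Dbp* was -0.26 without WT mouse 3, -0.30 with the hepatocyte covariate and -0.11 in limma-voom. *Arntl* was 0.033 with total counts alone. Without both hepatocyte-rich libraries, a setting chosen after seeing the data, *Per3* was -0.062, *Arntl* 0.11 and *Dbp* -0.22. The causes were not tested. A prior count of 0.5 changed the phase contrasts little, with Lpcat3 KOMac mouse 2 lowest (-0.154, from -0.153) and WT mouse 3 highest (2.01, from 2.00). With *Npas2* and *Nfil3* in place of *Clock*, all values moved and the order of mice changed.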

Other observations

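Pairs of mice of the same genotype with nearly equal *Alb*, the albumin mRNA of hepatocytes, were compared, chosen after their values were seen. WT mice 2 and 3 had *Alb* at 1205 and 1319 CPM. They differed in other cell type markers, with *Marco* at 3168 and 999 CPM and the monocyte marker *Ccr2* at 17.5 and 92.5 CPM. *Dbp* was 2.72-fold higher in WT mouse 2 than in WT mouse 3, *Nr1d1* 2.44-fold and *Nr1d2* 1.94-fold. Some genes ran the other way, with *Npas2* 9.31-fold (2 against 17 counts), *Nfil3* 2.72-fold and *Cry1* 1.64-fold higher in WT mouse 3. Lpcat3 KOMac mice 1 and 3 had *Alb* at 3131 and 3138 CPM, and *Marco* at 1353 and 2855 CPM. *Dbp* was 2.00-fold, *Nr1d1* 1.28-fold and *Nr1d2* 1.11-fold higher in Lpcat3 KOMac mouse 3, while *Npas2* was 1.85-fold (32 against 14 counts), *Nfil3* 1.68-fold and *Cry1* 1.52-fold higher in Lpcat3 KOMac mouse 1. Not every gene followed: *Hlf* was 2.99-fold higher in WT mouse 2 but 1.42-fold higher in Lpcat3 KOMac mouse 1, and the clock targets *Ciart* (1.01-fold and 1.06-fold) and *Usp2* (1.1-fold and 1.09-fold) differed little in either pair. *Arntl* itself differed by 1.07-fold in the WT pair and 1.29-fold in the Lpcat3 KOMac pair, and in both pairs it was higher in the mouse with more *Dbp*. Each pair is 2 animals, so no test was made.

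The ratio of *Per1* to *Per2* CPM, also computed after the values were seen, stood at 7.81, 11.6 and 12.3 for WT mice 1 to 3 and at 4.22, 1.09 and 4.03 for Lpcat3 KOMac mice 1 to 3. Every Lpcat3 KOMac mouse lay below every WT mouse, as already held for *Per1* alone, so the ratio is no separate evidence. The lowest value goes with *Per2* at 14.7 CPM in Lpcat3 KOMac mouse 2, a hepatocyte-rich library.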
